A study of Mus musculus with 4 samples.

Results

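The genes described here build the ribosome in the nucleolus. The list held 44 mouse symbols, picked by name with earlier results of these data known, and each gene was read from its brightest probe set with 1 gene symbol. Of the 44, 41 had such a probe set, among 19938 genes on the array. These 41 passed the filter on dim genes (mean log2 intensity above 6.77), the lowest at 6.99, and were tested among 11963 genes. Npm3 and Noc2l were not analysed here, and Ppan shared its probe set with another gene.

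The samples were conventional dendritic cells of type 2 (cDC2), antigen-presenting cells sorted from mouse spleen, with 2 arrays from wild-type cells (WT) and 2 from cells under the label Id2 knockout (Id2 KO). Both groups came from chimeric mice that carried the Zbtb46-GFP reporter, a fluorescent protein driven by a gene of conventional dendritic cells, and they differed in the labels by the Id2 KO genotype alone. Age, sex, the host of the chimeras and the part of Id2 that was deleted were not given in the sources used here, nor whether replicates came from separate mice, so that p-values measure the spread between these arrays, which may be technical. The tissue is spleen in every sample label, although bone marrow appears beside it in the design text.

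Ribosome production starts when RNA polymerase I copies the ribosomal RNA genes into a long precursor in the nucleolus. Small nucleolar RNAs and their protein partners (snoRNPs) modify this precursor, the small subunit processome and the large subunit factors fold and cut it, and the pieces leave for the cytoplasm as the 40S and 60S subunits. Growing and dividing cells raise these steps, and MYC is a known activator of many of the genes. Id2 binds E proteins and keeps them from E-boxes, a class of DNA sequences. MYC and other helix-loop-helix factors also bind E-boxes, though not always the same forms.

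Id2 itself lay at log2 intensities of 9.14 and 9.08 in WT against 8.71 and 8.97 in the arrays labelled Id2 KO, lower without overlap, but the difference of -0.27 did not pass (limma, adjusted p = 0.172). It passed without Id2 KO replicate 2 (-0.40, adjusted p = 0.0326). Its single probe set may lie outside the deletion and then checks nothing, so every direction rests on the labels. Xist, an RNA of female cells, averaged 11.96 in WT and 6.67 in Id2 KO (limma, adjusted p = 3.66e-09). Kdm5d, a Y-linked gene, averaged 5.63 in WT and 8.29 in Id2 KO (limma, adjusted p = 2.04e-05). With these levels, genotype and the sex of the cells cannot be told apart for any gene, sex-linked or not. The 11 cDC2 markers had summed intensities of 46180 and 46356 in WT against 42632 and 44277 in Id2 KO, sums carried by the brightest genes. Of these markers 3 fell, namely Zbtb46 (-1.02, limma adjusted p = 0.000135), Itgam (from a mean of 10.77 to 9.78, 0.00479) and Cd4 (-0.84, 0.00323), and Esam rose (0.53). Zbtb46, the gene of the reporter, read 6.49 and 6.59 in the Id2 KO arrays, below the filter level. The 12 neutrophil markers were all lower in Id2 KO, with sums of 17984 and 18664 against 1563 and 2476, and 7 of 8 B cell markers were higher, with sums of 1217 and 1203 against 2352 and 2797. Macrophage markers (5 of 6, median -0.68), monocyte markers (3 of 3, -0.88) and erythroid markers (2 of 2, -1.21) also fell, and 3 of 5 markers of plasmacytoid dendritic cells rose (median 0.56). No marker reads 0 on this scale, and the part of these cells in the results below was not tested. In such bulk samples, fewer cells of a type and less RNA per cell cannot be told apart.

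None of the 41 ribosome biogenesis genes passed the test between Id2 KO and WT cDC2 (limma, Benjamini-Hochberg adjustment over all tested genes, 0 higher and 0 lower). Over all tested genes 5.53% were called higher and 2.52% lower. At an unadjusted p under 0.05, 3 members were higher (Nop10, Ncl and Noc4l) and 1 was lower (Rrp1b), against 13.1% higher and 7.61% lower in the background. The median difference of the 41 was 0.05 on the log2 scale (1.04-fold), with a range from -0.25 to 0.54, beside a median of 0.01 over all tested genes. In 27 of the 41 the Id2 KO mean was above the WT mean (65.9%, background 52.1%). Both Id2 KO arrays lay above both WT arrays in 7 members (17.1%, background 27.9%) and below them in 4 (9.76%, background 22.8%). The groups overlapped in the other 30 members, and in 5902 of the 11963 tested genes.

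These arrays set bounds on the difference between the groups, in which genotype and sex cannot be told apart. The 95% interval, unadjusted for the number of genes, lay within 1.5-fold of no change (0.585 on the log2 scale) in 40 of 41 members, beside 91.5% of all tested genes. Nop10 was the exception, with an upper bound of 1.85-fold. Differences inside these intervals were not resolved with 2 arrays per group. The plot of differences and intervals shows this for each gene.

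**Figure D1:**
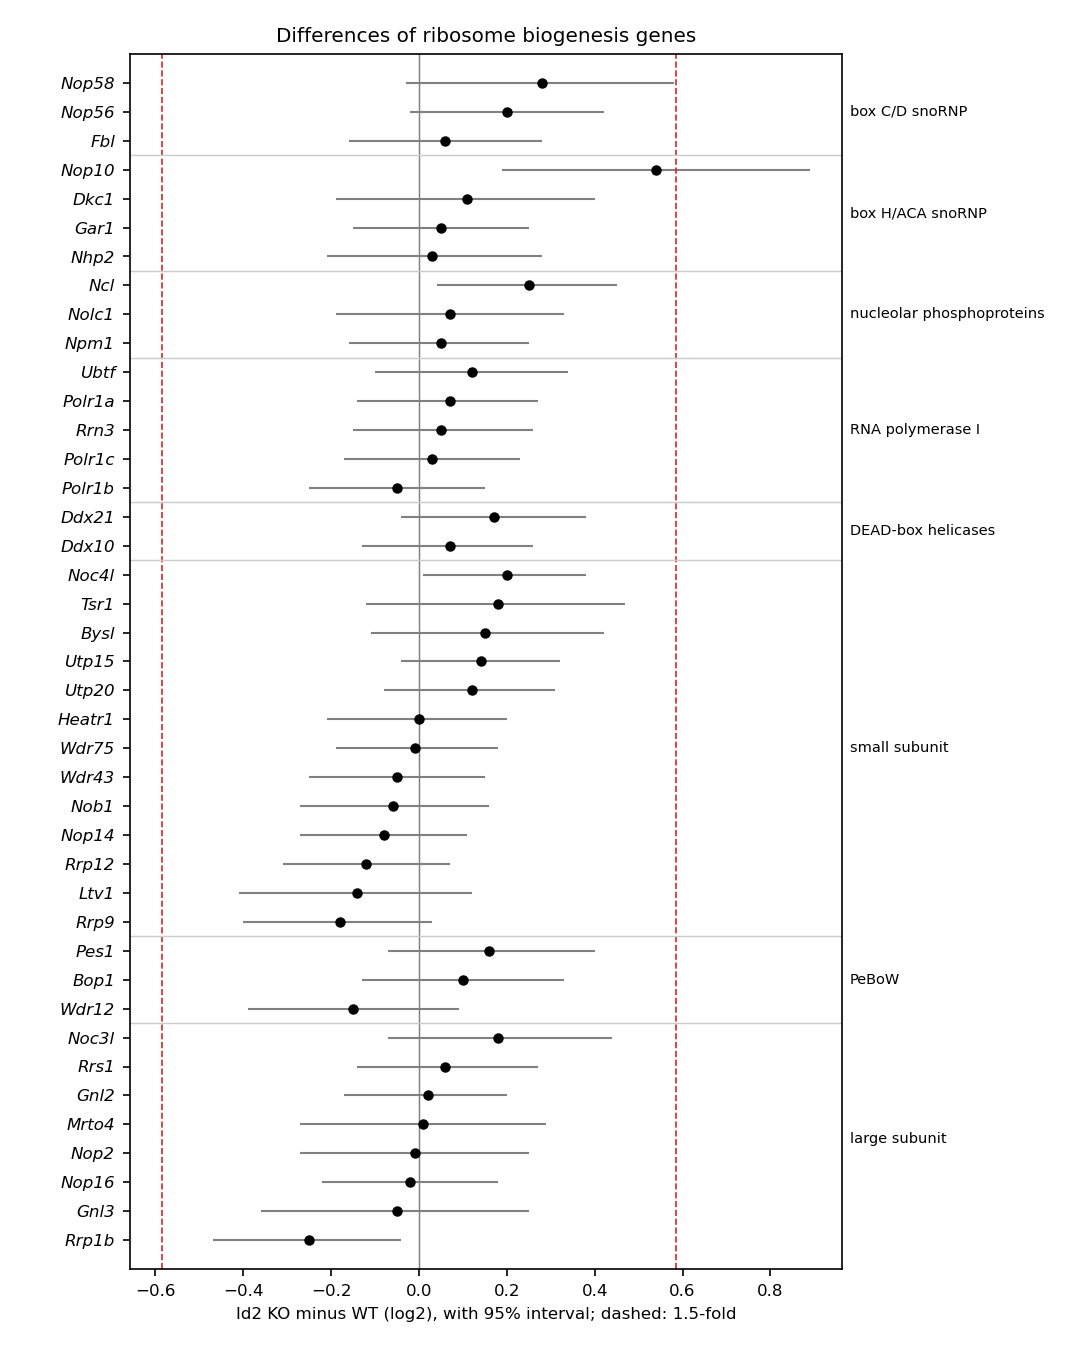
Id2 KO minus WT on the log2 scale for the 41 tested ribosome biogenesis genes, grouped by role. Points are differences of group means (n = 2 arrays each), bars are 95% intervals from limma, and dashed lines mark 1.5-fold; the interval of Nop10 alone crosses a dashed line.

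The box H/ACA snoRNP turns chosen uridines of the RNA precursor into pseudouridine, and its small subunit gene Nop10 had the largest difference of the 41. Nop10 read 9.26 and 9.74 in WT against 10.17 and 9.90 in Id2 KO, a difference of 0.54 (95% interval 0.19 to 0.89, 1.45-fold) that did not pass (limma, adjusted p = 0.0709). Both Id2 KO arrays were above both WT arrays, but the WT arrays lay 0.48 apart, nearly as far as the group means. The call turned with the choice of arrays, since Nop10 passed without WT replicate 2 (0.78, adjusted p = 0.0134), without Id2 KO replicate 2 (0.67, adjusted p = 0.0288) and with median-centred arrays (0.56, adjusted p = 0.0348), and was at 0.30 (adjusted p = 0.407) without WT replicate 1. The other 3 genes of the particle stayed closer to WT. Dkc1, the catalytic pseudouridine synthase and the X-linked member, read 7.93 and 8.14 in WT against 8.33 and 7.95 in Id2 KO (difference 0.11, adjusted p = 0.722). Gar1 differed by 0.05 and Nhp2 by 0.03, both RNA-binding or structural partners of the synthase, with overlapping groups.

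The box C/D snoRNP methylates ribose sugars of the precursor. Its scaffold gene Nop58 read 8.42 and 8.53 in WT against 8.97 and 8.53 in Id2 KO, so that a single Id2 KO array stood above the rest (difference 0.28, 95% interval -0.03 to 0.58, limma adjusted p = 0.289). Without Id2 KO replicate 2 the difference of Nop58 was 0.50 and passed (adjusted p = 0.0129), and without Id2 KO replicate 1 it was 0.05 (adjusted p = 0.911). Nop56, the partner scaffold of Nop58, read 9.42 and 9.43 in WT against 9.75 and 9.51 in Id2 KO, without overlap (difference 0.20, 95% interval -0.02 to 0.42, adjusted p = 0.284). Fbl, the methyltransferase fibrillarin, differed by 0.06 (95% interval -0.16 to 0.28), and its dimmer probe set by 0.08.

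Among the abundant nucleolar phosphoproteins, Ncl encodes nucleolin, which binds nascent ribosomal RNA. Ncl read 10.18 and 10.06 in WT against 10.44 and 10.29 in Id2 KO, higher without overlap, and did not pass (difference 0.25, 95% interval 0.04 to 0.45, limma adjusted p = 0.162, and between 0.0885 and 0.521 over the alternatives). Nolc1, a chaperone of snoRNPs, differed by 0.07 with WT values of 9.16 and 9.29 inside the Id2 KO values of 9.46 and 9.13. Npm1, the histone chaperone nucleophosmin, differed by 0.05 (95% interval -0.16 to 0.25). A further 3 probe sets shared by Npm1 and the predicted gene Gm15484 differed by -0.01, -0.03 and -0.06, and signal from near-identical copies cannot be separated there.

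RNA polymerase I and its initiation factors showed the same small differences, with overlapping groups in 5 of 5 genes (5902 of 11963 over all tested genes). Polr1a, the largest subunit, differed by 0.07 (95% interval -0.14 to 0.27), Polr1b, the second largest, by -0.05 (-0.25 to 0.15) and Polr1c, which RNA polymerase III shares, by 0.03 (-0.17 to 0.23). Ubtf, which keeps ribosomal genes open, read 9.20 and 9.34 in WT against 9.49 and 9.30 in Id2 KO (difference 0.12, limma adjusted p = 0.554). Rrn3, which links the polymerase to its promoter, differed by 0.05 (-0.15 to 0.26). Of the helicases, Ddx21, which acts in both transcription and processing of ribosomal RNA, read 9.60 and 9.54 in WT against 9.84 and 9.64 in Id2 KO, without overlap and without a call (difference 0.17, adjusted p = 0.355). Ddx10, a small subunit helicase, differed by 0.07.

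**Figure D2:**
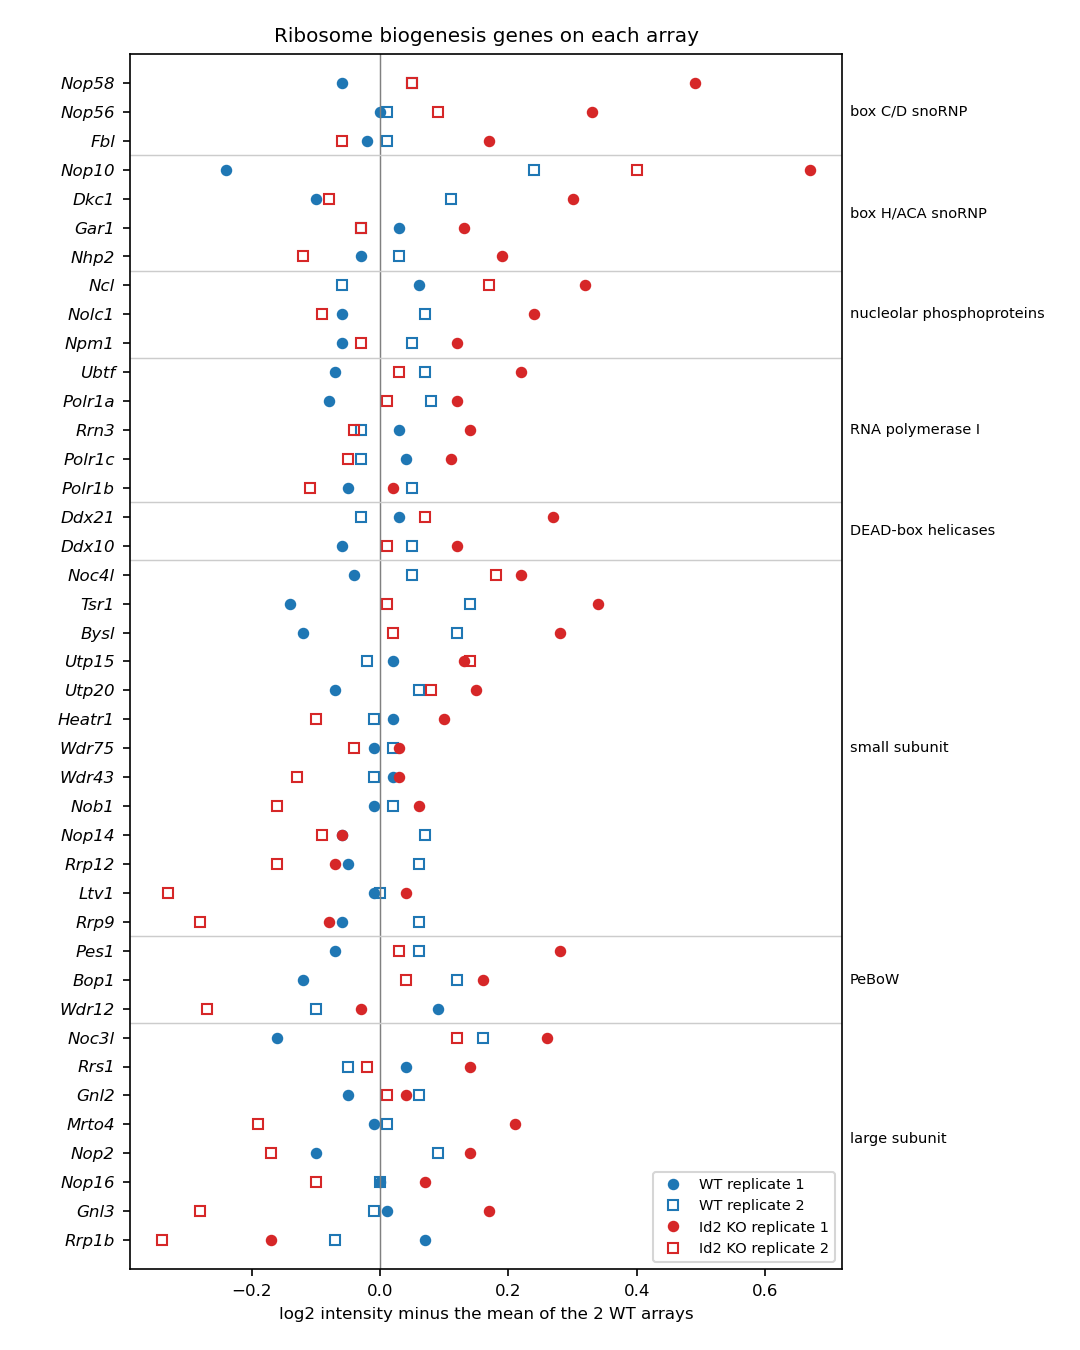
Log2 intensity of each tested ribosome biogenesis gene on each of the 4 arrays, minus the mean of the 2 WT arrays. Filled red points (Id2 KO replicate 1) lie to the right of open red squares (Id2 KO replicate 2) for 40 of the 41 genes.

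The 13 genes of the small subunit pathway split around 0, with a median of -0.01 and 5 of 13 higher. Noc4l, whose yeast counterpart partners that of Nop14 in 40S assembly, read 7.96 and 8.05 in WT against 8.22 and 8.18 in Id2 KO, without overlap (difference 0.20, 95% interval 0.01 to 0.38, limma adjusted p = 0.213). Nop14 itself differed by -0.08. Tsr1 (0.18) and Bysl (0.15), both factors of late 40S maturation, had overlapping groups, as did the nuclease gene Nob1 (-0.06), which makes the final cut of 18S RNA, and Ltv1 (-0.14), an escort of the pre-40S particle. Among the processome genes, Utp15 (0.14) and Utp20 (0.12) were higher without overlap, while Heatr1 (0.00), Wdr75 (-0.01) and Wdr43 (-0.05) lay near 0. Rrp9, a U3 snoRNP protein gene, differed by -0.18 (95% interval -0.40 to 0.03), and Rrp12, an export factor gene, by -0.12, both lower without overlap.

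The 11 tested genes of the large subunit pathway included the member with the lowest difference. Rrp1b, a nucleolar protein gene of 60S assembly, read 8.40 and 8.26 in WT against 8.16 and 7.99 in Id2 KO, lower without overlap, and did not pass (difference -0.25, 95% interval -0.47 to -0.04, limma adjusted p = 0.167, between 0.0916 and 0.645 over the alternatives). The PeBoW complex, which is needed to process the large subunit precursor, was not lower or higher as a unit. Its genes Pes1 (0.16), Bop1 (0.10) and Wdr12 (-0.15) all had overlapping groups, and a dimmer probe set of Wdr12 differed by 0.07, opposite in sign to the brightest. Noc3l (0.18) and Rrs1 (0.06), both factors of 60S assembly, were above 0, and Gnl2 (0.02), Mrto4 (0.01), Nop2 (-0.01), Nop16 (-0.02) and Gnl3 (-0.05) within 0.1 of it. Gnl3 encodes nucleostemin, a GTP-binding protein of dividing cells, and Nop2 an RNA methyltransferase. The shared probe set of Ppan differed by -0.01.

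The members differed by a median of 0.19 between the Id2 KO arrays and of 0.05 between the group means. The order was reversed in some members, among them Nop10 (0.27 and 0.54) and Ncl (0.15 and 0.25). In 40 of 41 members Id2 KO replicate 1 was above Id2 KO replicate 2 (97.6%, against 55.4% of all tested genes), with a median gap of 0.19 beside 0.02 over all tested genes. Utp15 was the exception, at -0.01. The widest gaps were those of Gnl3 (0.45), Nop58 (0.44), Mrto4 (0.40), Dkc1 (0.38) and Ltv1 (0.37), named after their values were seen. Gnl3, for example, read 8.16 and 7.71 in the Id2 KO arrays, on both sides of its WT mean of 7.99. Id2 KO replicate 1 was the highest of the 4 arrays for 33 members (80.5%, background 34.0%) and Id2 KO replicate 2 the lowest for 20 (48.8%, background 22.3%). The median deviation of the 41 genes from their own mean was -0.05 and 0.01 in WT, against 0.11 and -0.06 in the Id2 KO arrays, so the WT arrays lay between the Id2 KO arrays. Between the WT arrays the median gap of the members was -0.09 (replicate 1 minus replicate 2), beside -0.02 over all tested genes. WT replicate 1 was above WT replicate 2 in 13 of 41 members (31.7%, against 43.3% of all tested genes). Replicates have no order, and neither gap has a test here. Without Id2 KO replicate 2 the median difference was 0.15, and without Id2 KO replicate 1 it was -0.04.

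Proliferation genes and some other genes of the pathway showed a gap in the same direction between the Id2 KO arrays. That direction was not confined to them. Cct3, Cct5 and Atp5o, for example, were also higher in Id2 KO replicate 1, as were 55.4% of all tested genes. All 25 tested proliferation genes were higher in Id2 KO replicate 1, by a median of 0.39, as were 13 of 13 RNA exosome genes (0.13) and 74 of 91 other ribosome biogenesis genes (0.10). Ribosomal protein genes were higher in Id2 KO replicate 1 in 45 of 55, by a median of 0.03, less than the median of 0.06 by which 50 of 55 were higher in WT replicate 1 than in WT replicate 2. Myc read 9.62 and 9.17 in the Id2 KO arrays and 8.95 and 9.20 in WT. B cell markers went the other way in 8 of 8. Neutrophil markers were higher in Id2 KO replicate 1 in 4 of 12, with a median gap of -0.3. Their summed intensities were 1563 in Id2 KO replicate 1 and 2476 in Id2 KO replicate 2. The part of proliferating cells, of other cell types or of Myc in the gap was not tested.

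**Figure D3:**
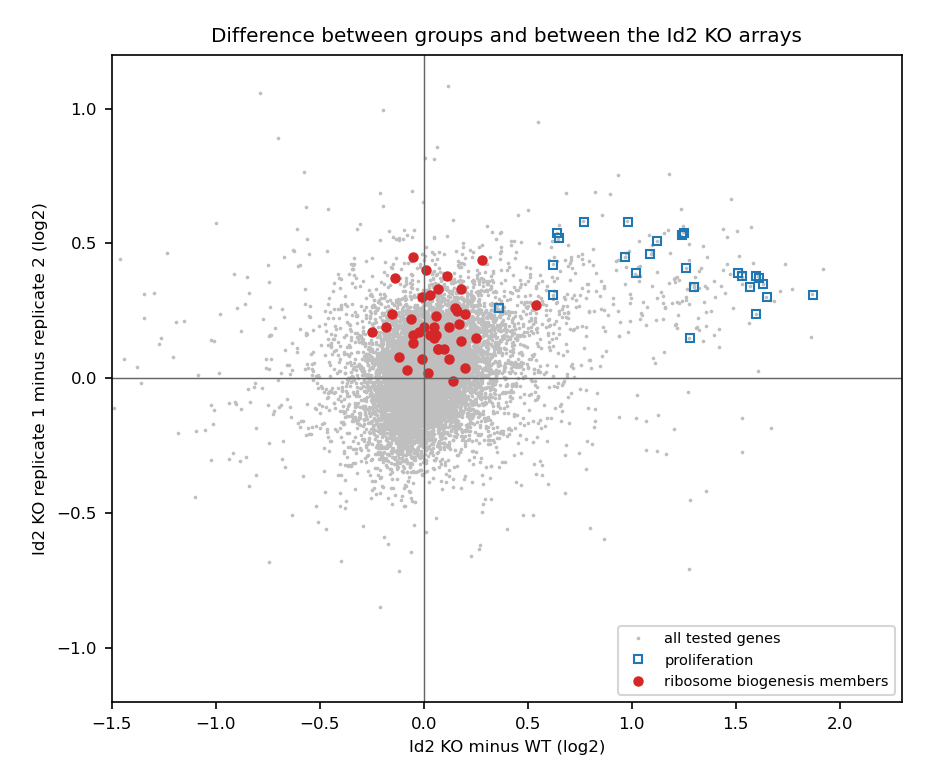
Each gene's difference between groups (Id2 KO minus WT, log2, x axis) and between the Id2 KO arrays (replicate 1 minus replicate 2, log2, y axis), with 16 of the 11963 tested genes outside the axes. Ribosome biogenesis genes (red) gather around 0 on the x axis and above 0 on the y axis, while proliferation genes (blue squares) lie to the right and above 0.

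Genes of cell division were higher in the same Id2 KO arrays in which the ribosome biogenesis genes gave no call. Of 25 tested proliferation genes 24 rose and none fell, with a median difference of 1.25 (2.37-fold). Kif11, a mitotic kinesin gene, rose by 1.87 and Foxm1, a transcription factor gene of mitosis, by 1.65. Pcna, the DNA clamp gene, was the member that did not pass (0.36). The difference between the lists was not tested. Their ranges did not touch apart from Nop10 at 0.54 and Pcna at 0.36.

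The wider pathway, from lists chosen with earlier results of these data known, gave few calls. Of 91 tested other ribosome biogenesis genes, 0 were higher and 0 lower (limma; 6 higher and 0 lower at an unadjusted p under 0.05), with a median of 0.06 and a range from -0.12 to 0.42. The largest were Nol10, a small subunit processome gene (0.42, adjusted p = 0.0577), and Riok2, a kinase gene of 40S maturation (0.37, adjusted p = 0.0834). Nol10 passed with median-centred arrays (0.44, adjusted p = 0.0407) and without Id2 KO replicate 2 (0.56, adjusted p = 0.00846). Among 10 further genes of RNA polymerase I, Taf1b, a subunit gene of the selectivity factor that recruits the polymerase, fell from 8.68 and 8.92 to 8.30 and 8.25 (difference -0.53, 95% interval -0.75 to -0.30, adjusted p = 0.0114), a call that was lost without WT replicate 2 (-0.41, adjusted p = 0.0814). Polr1g, listed as Cd3eap, differed by -0.26 and did not pass (limma, adjusted p = 0.104). These 10 genes had a median of 0.01, with 5 above 0, and 0 were called higher and 1 lower. The shares over all tested genes were 5.53% and 2.52%. The RNA exosome, which trims ribosomal RNA precursors, had 11 of 13 genes above 0 with a median of 0.15 and no call (limma; 1 higher at an unadjusted p under 0.05). Exosc8 was its largest (0.29, adjusted p = 0.117) and passed without Id2 KO replicate 2 (0.42, adjusted p = 0.0256). Without Id2 KO replicate 1 the median of the exosome genes was 0.04.

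Transcripts of the cytosolic ribosomal proteins, which the pathway assembles into subunits, showed small differences. Of 80 listed genes 55 had a probe set with 1 gene symbol, and of these 0 passed in either direction (limma; 0 at an unadjusted p under 0.05), their differences reached from -0.12 (Rpl29) to 0.14 (Rps27l), and the intervals of 55 of 55 lay within 1.5-fold. Many of these genes have near-identical retrocopies, and their probe sets can hold signal from several loci.

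Regulators named for the pathway gave few calls. Of 10 tested genes of the Myc network 1 was called higher and 1 lower, with a median of -0.03. At an unadjusted p under 0.05 (limma), 1 was higher and 3 were lower. Over all tested genes 5.53% were called higher and 2.52% lower. In the Myc network, Mxd3, which encodes a MAX partner that represses MYC targets, rose from 7.85 and 7.99 to 8.49 and 8.46 (difference 0.55, limma adjusted p = 0.00429, and 0.0512 without WT replicate 1). Mxd1, another repressive MAX partner, fell from 9.83 and 9.85 to 9.29 and 9.39 (-0.50, adjusted p = 0.00549). Both changed without overlap. Mxd4 differed by -0.37 (adjusted p = 0.0607) and was called only with renewed quantile normalization (-0.43, adjusted p = 0.0405) and without Id2 KO replicate 2 (-0.47, adjusted p = 0.0227). Myc itself differed by 0.32 with overlapping groups (95% interval -0.01 to 0.65, adjusted p = 0.261) and passed without Id2 KO replicate 2 (0.54, adjusted p = 0.0174). Stalled ribosome assembly is known to stabilise p53 through MDM2. Of 8 tested genes of the p53 list 0 passed (limma; 0 higher and 2 lower at an unadjusted p under 0.05), with Sesn2 at -0.28, Bbc3 at -0.22, Mdm4 at 0.20 and Mdm2 at 0.18. Trp53 and Cdkn1a were not analysed here.

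**Figure D4:**
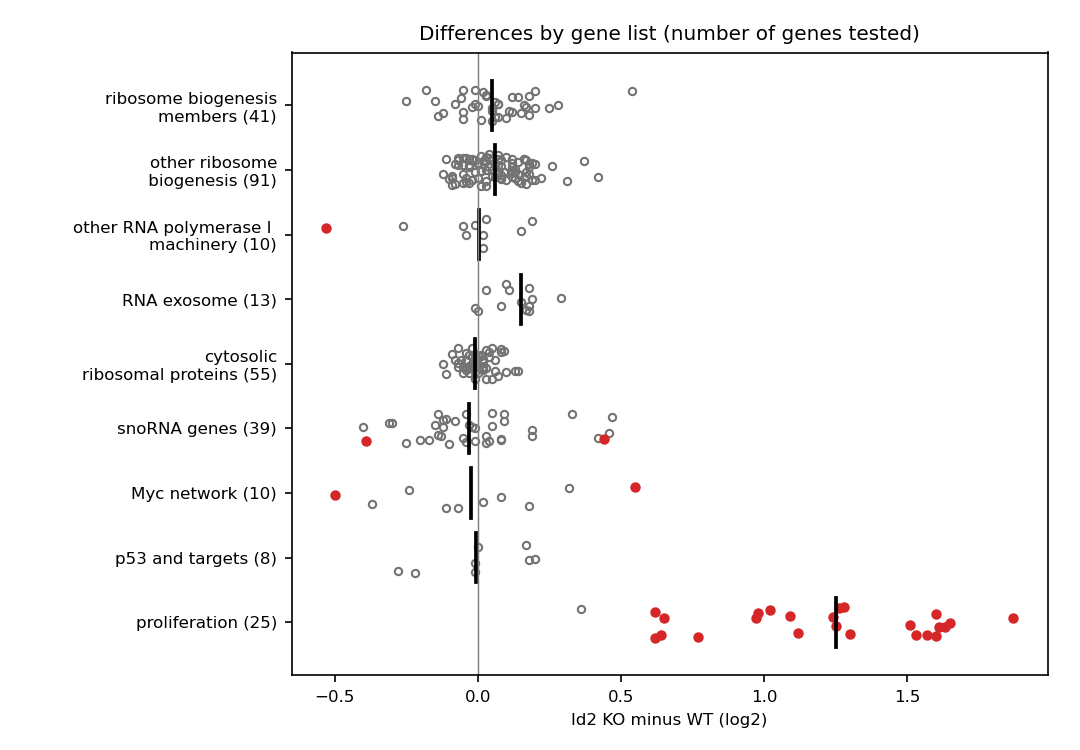
Id2 KO minus WT (log2) for each tested gene by list, with the number of genes in brackets; red points passed limma at an adjusted p under 0.05 and black bars are medians. The ribosome biogenesis genes centre on 0.05 with no red point, and the proliferation genes on 1.25 with 24 of 25 red.

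The promoters of the members with the lowest p-values are shown because E proteins and MYC bind forms of the E-box. Which factor binds which form was not examined here. The stretches are the 250 bases before the RefSeq start in GRCm38.p6, 5′ to 3′ on the strand of the gene. Capitals would mark the E-box CACGTG, the E-box CAGCTG or the E-box CACCTG on either strand, and none of these was in the 3 windows.
Nop10 promoter, chr2:112261676-112261925, plus strand: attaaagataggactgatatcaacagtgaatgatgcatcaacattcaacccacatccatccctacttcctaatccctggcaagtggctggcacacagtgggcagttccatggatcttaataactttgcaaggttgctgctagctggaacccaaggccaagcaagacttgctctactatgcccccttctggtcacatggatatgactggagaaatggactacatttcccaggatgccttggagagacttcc
Ncl promoter, chr1:86359456-86359705, minus strand: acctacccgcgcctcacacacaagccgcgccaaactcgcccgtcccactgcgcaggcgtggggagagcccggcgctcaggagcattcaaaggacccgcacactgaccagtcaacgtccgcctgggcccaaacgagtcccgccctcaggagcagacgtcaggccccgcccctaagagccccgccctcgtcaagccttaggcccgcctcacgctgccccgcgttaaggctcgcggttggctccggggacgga
Rrp1b promoter, chr17:32035912-32036161, plus strand: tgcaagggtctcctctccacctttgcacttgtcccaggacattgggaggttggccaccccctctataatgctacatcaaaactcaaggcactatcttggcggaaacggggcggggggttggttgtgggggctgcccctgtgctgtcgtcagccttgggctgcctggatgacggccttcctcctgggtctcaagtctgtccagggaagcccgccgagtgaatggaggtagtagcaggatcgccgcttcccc

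Of 38 members with a RefSeq promoter, 2 held CACGTG (5.26%, against 6.65% of 17491 protein-coding genes), 7 held CAGCTG (18.4%, against 11.6%) and 1 held CACCTG (2.63%, against 16.5%). Both strands were searched, and a promoter with several motifs counted for each. The members with CACGTG were Nop2 and Rrn3, whose differences of -0.01 and 0.05 had overlapping groups. Their matches are shown with 12 bases on each side, the motif in capitals.
Nop2, chr6:125131811-125131840, plus strand: gtgtccctggatCACGTGtgttccggtgcc
Rrn3, chr16:13780472-13780501, plus strand: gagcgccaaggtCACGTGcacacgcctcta
Rrn3, chr16:13780639-13780668, plus strand: ttacgctctgctCACGTGggccgcgtcccg
The 33 tested members with a promoter and without CACGTG had a median difference of 0.07. A match is a description of the letters, and binding was not measured.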

How the data were processed

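Expression was measured on 4 single-colour Affymetrix arrays, 2 per group, after whole-transcriptome amplification named in the labels' protocols, which can shift the levels of some transcripts. The deposited values are 1 linear intensity per probe set and array, from 5.19 to 18624. Per the submitters' processing notes the authors used Affymetrix Expression Console and RMA, with no version or order; a return from log2 to linear intensity is not stated. Scaling between arrays removes most of a change in total RNA per cell, and no background call was used here.

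Log2 was taken without a pseudocount. Of 28853 probe sets 21789 had 1 gene symbol in the platform annotation, updated through a GRCm38.p6 gene table (21698 matched). The brightest probe set stood for a gene, and those above the 40th percentile of mean intensity entered a fit by limma 3.58.1 (R 4.3.3, lmFit and eBayes, 2 residual and 6.77 prior degrees of freedom), two-sided, with Benjamini-Hochberg adjustment over all of them and a threshold of 0.05. The members and lists were chosen with earlier results of these data known, so lists are described by counts and medians without a set test. Array values were given for the 6 members with the largest difference and others where a result turned on them. The fit was also run on simulated data drawn from its own noise model, a check of the code that says nothing about these arrays. Alternatives covered the filter, scaling, probe set, log offset, prior, replicate block, each array left out and, added after seeing the data, no X- or Y-linked genes. The number of arrays limits the precision.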

Additional observations from a re-analysis of the deposited data

How the results depend on the processing

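No member passed in either direction with no filter, a filter at the 60th percentile (35 members left), renewed quantile normalization, the mean of probe sets, log2(intensity + 16), an intensity trend in the prior, the replicate block or without X- and Y-linked genes. With median-centred arrays 1 member was higher (Nop10). With each array left out in turn, 0 to 2 members were higher and 0 lower, the median member difference was between -0.04 and 0.15, and between 459 and 1171 of all genes were called. The median member difference was 0.07 after centring arrays on their medians and 0.01 after renewed quantile normalization. Over the 13 alternatives 19 of 41 members kept their sign, and the sign changes were among values that passed in neither fit; their cause was not tested. With the replicate block 684 genes were called in place of 962, and no member. The gaps between replicates 1 and 2 of the 2 groups correlated at -0.14 across all tested genes, which says nothing about single lists. Ribosomal protein genes were higher in replicate 1 in both groups, in 45 of 55 for Id2 KO and 50 of 55 for WT. Over all tested genes the shares were 55.4% and 43.3%. The 2 arrays per group limit what can be resolved.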

Other observations

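Small nucleolar RNAs guide the enzymes of the snoRNPs to their sites, and the array holds probe sets for 54 of their genes, a list added after seeing the data. Of 39 tested snoRNA genes 1 rose and 1 fell, with a median difference of -0.03 and a range from -0.40 to 0.47. At an unadjusted p under 0.05 (limma), 3 were higher and 6 lower. Over all tested genes 5.53% were called higher and 2.52% lower. Snora52 read 8.10 and 8.34 in WT against 8.59 and 8.73 in Id2 KO (0.44, limma adjusted p = 0.0330), and its call was lost with no filter (adjusted p = 0.0591), with renewed quantile normalization (0.0568), without WT replicate 1 (0.264) and without Id2 KO replicate 2 (0.0894). Snord53 read 6.94 and 7.12 in WT against 6.59 and 6.69 in Id2 KO (-0.39, adjusted p = 0.0342), near the filter level of 6.77, and lost its call with no filter (0.0628), with renewed quantile normalization (0.0566), with the replicate block (0.0564), without either WT replicate (0.0582 and 0.209) and without Id2 KO replicate 1 (0.126). Many snoRNAs lie in introns of other genes, and signal from the host transcript cannot be told apart from theirs here.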
